A study of Homo sapiens with 18 samples.

Results

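The stretch described here was set to represent the 3′ major domain of human 18S rRNA, which forms the head of the small ribosomal subunit. It was taken as the nucleotides from U1201 to G1636 of the 1869-nucleotide reference in the files, read with primer set 1. Its ends were not checked against the limits of the domain, so in the values below the head means this stretch. This gives 436 positions of 1816 distinct positions measured in the series. The choice used position only and no measured value. U1248 is given apart because of its high background, which leaves 435 positions for means and counts. RefSeq lists 5 RNA18SN genes of this length, and reads from such copies cannot be told apart.

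The cells were MDA-MB-231, a long-established line from human breast cancer. They carried a scrambled control (SCR) or a knockdown called FBL1 or FBL2 in the labels, read here from the series title as knockdowns of fibrillarin. Each line was treated for 15 min at 37 °C with 2A3, or with DMSO as background. The sources used here do not give the fibrillarin level, the knockdown reagent or whether a line is 1 clone. There is 1 library per line, reagent and primer set, so no test across libraries was possible and no p-value is given. The design text speaks of wells seeded in duplicate, but whether a library pools such wells or comes from 1 of them is not stated there. Depth over the head ran from 98568 to 280361 reads per position with primer set 1, and the FBL1 library with 2A3 was the shallowest. Errors after ± are counting errors of 1 library or library pair. Where 3 values stand in a row they are those of SCR, FBL1 and FBL2, in that order.

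2A3 is a SHAPE reagent: it acylates the 2′-hydroxyl of nucleotides that move freely, so loops and bulges react more than stable helices. Fibrillarin is the methyltransferase of box C/D particles, which place 2′-O-methyl groups on rRNA at sites chosen by guide RNAs. The head of the small subunit swivels against the body when the ribosome moves along the mRNA. It carries part of the binding sites for tRNA, and RPS28, named in the series title, is one of the proteins of the small subunit.

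The stretches that carry most of the signal are printed first, from the reference bases of the files, 5′ to 3′. Positions are those of the files. The first set shows predicted hairpin loops, with the loop in capitals and 6 bases on each side in lower case. These loops were the same in 3 folds by RNAfold (the head alone, the whole primer set 1 stretch and all of 18S rRNA), which is a prediction from sequence. The first 3 are shown because they hold 6 of the 10 highest positions in SCR, and the last 2 because they had little signal.
Loop at 1343 to 1350: cguucuUAGUUGGUggagcg
Loop at 1417 to 1423: gcgaccCCCGAGCggucgg
Loop at 1461 to 1465: aguggcGUUCAgccacc
Loop at 1369 to 1381: cugguuAAUUCCGAUAACGaacgag
Loop at 1615 to 1624: cggggaUUGCAAUUAUucccca

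The second set shows stretches around positions that differed between lines and are discussed further on. Capitals mark positions that passed a size rule in both knockdowns or had at least 1% signal in SCR; in the stretch around C1247 they mark that position and U1248.
Around A1217: ggcaccAccagga
Around C1247: auuugaCUcaacac
Around U1297: gacagaUUGauagcu
Around A1313: uucucgAuuccgu
Around G1507: gcccuuAGaugucc
Around A1522: gggcugCAcgcgcg
Around U1555: gcguguGcCUAcccuac
Around A1601: uucgugAugggga

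Signal, the percent of reads with an event after 2A3 minus that after DMSO, was low over most of the head and high at few positions. Of 435 positions in SCR, 26 had at least 1% and 39 at least 0.5%, and the median was 0%. The 10 highest positions held 43.9%, 38.6% and 42.7% of the summed signal. The same peaks stand out in every line in the profile along the stretch, with Pearson r over the 435 positions of 0.980 for SCR and FBL1, 0.984 for SCR and FBL2 and 0.992 for FBL1 and FBL2. The few high positions weigh heavily in these values: over the 396 positions under 0.5% in SCR r was 0.670, 0.734 and 0.817. All libraries here are of the same amplicon. Spearman's rho over the 435 positions was 0.659, 0.689 and 0.740, in the same order of pairs.

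**Figure D1:**
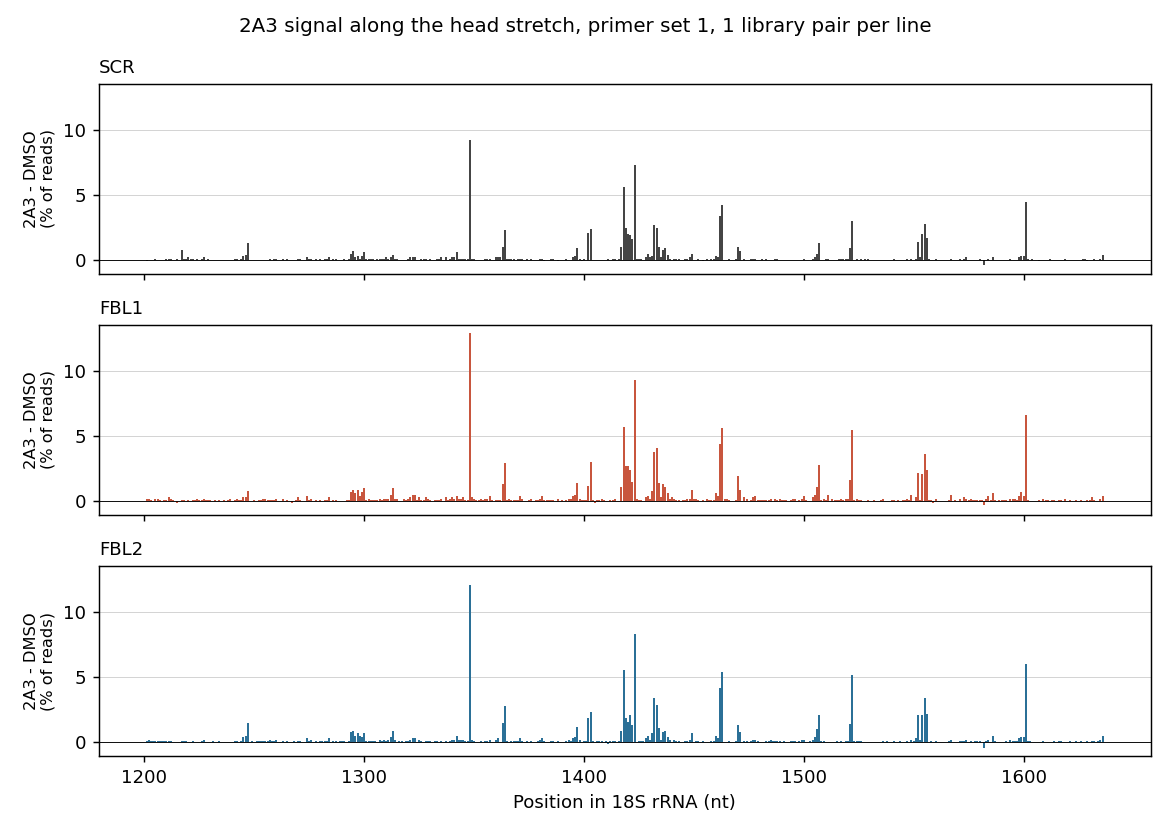
2A3 minus DMSO signal in percent of reads (y) at each head position of 18S rRNA (x, nucleotides) in SCR, FBL1 and FBL2, primer set 1, with 1 library pair per line and U1248 left out. The highest line in each panel is G1348, at 9.2%, 12.9% and 12.1%, and the densest group of high positions lies between 1417 and 1437.

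The first comparison asked how the head as a whole differed between lines. Mean signal was 0.237% ± 0.00078, 0.367% ± 0.0011 and 0.304% ± 0.00082, with errors that leave out rounding and variation between cultures. FBL1 was thus 1.55-fold and FBL2 1.29-fold the SCR level. Mean DMSO reactivity was 0.140%, 0.139% and 0.141%, so the background of the head was alike in the 3 lines. In the remaining 250 positions of the primer set 1 stretch the means were 0.166%, 0.285% and 0.220%, ratios of 1.72 and 1.33. At the 39 head positions with at least 0.5% in SCR the median ratio was 1.30 in FBL1 and 1.17 in FBL2.

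Much of the difference in the mean came from positions near the rounding step of 0.1%. The 396 positions under 0.5% in SCR averaged 0.0563%, 0.136% and 0.0932%. They made up 55.7% of the summed gain in FBL1 and 49.5% in FBL2. Positions above 0 numbered 217, 335 and 281. At single positions a gain of this size is not detectable at this rounding.

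By windows of 50 positions, the order FBL1 above FBL2 above SCR held in all 9 windows. The window from 1401 to 1450 was the highest, with 0.762%, 0.958% and 0.804%, and held 37.0% of the SCR signal. It had the smallest ratio of FBL2 to SCR among the windows, at 1.06. The window from 1501 to 1550 had the largest ratio in FBL1, at 2.20, from 0.148% in SCR to 0.326%, and FBL2 was at 0.244%. The first window, which starts at U1201, was the lowest in each line, at 0.0939%, 0.116% and 0.102%.

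**Figure D2:**
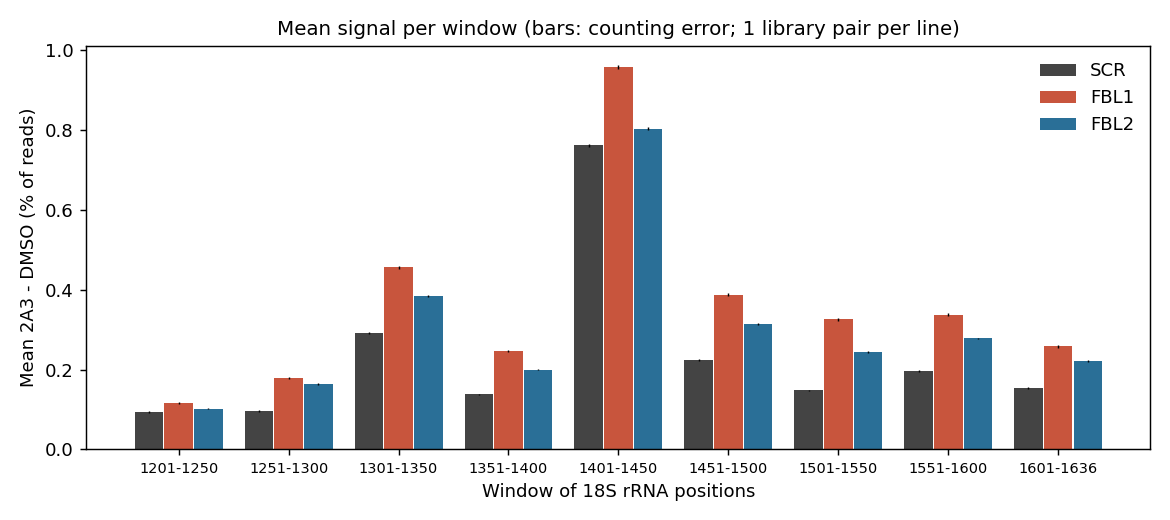
Mean 2A3 minus DMSO signal in percent of reads (bars, y axis from 0) in windows of 50 positions of the head (x; the last window has 36) for SCR, FBL1 and FBL2, with counting errors and 1 library pair per line. The window 1401-1450 stands highest at 0.762%, 0.958% and 0.804%, and FBL1 lies above FBL2 and FBL2 above SCR in each window.

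Among the bases, mean signal in SCR was 0.287% for cytidines, 0.242% for uridines, 0.219% for adenosines and 0.198% for guanosines. In FBL1 uridines had 0.407% and cytidines 0.385%, and in FBL2 they had 0.332% and 0.330%. The order of the bases rested in part on a few positions. Without the 10 highest positions in SCR, a choice made after seeing the data, the SCR means were 0.162% for cytidines, 0.109% for uridines, 0.139% for adenosines and 0.129% for guanosines. Uridines, which held 4 of the 10, were then the lowest in SCR, and in FBL1 they had 0.234% against 0.242% for cytidines. At the positions with at least 0.5% in SCR the median FBL2 to SCR ratio was 1.1 over 15 cytidines, 1.23 over 8 uridines, 1.29 over 8 adenosines and 1.36 over 8 guanosines. The FBL1 ratios were 1.27, 1.31, 1.35 and 1.40 in the same order.

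The highest signal lay in predicted hairpin loops. The 59 positions placed in the same hairpin loop by all 3 folds averaged 0.710%, 0.959% and 0.827%, and held 10 of the 26 positions of at least 1% while making up 13.6% of the head. The 147 positions unpaired in all folds averaged 0.364% in SCR and the 227 paired in all folds 0.184%. Predicted pairing did not mark off reactive positions cleanly, since 12 of the 26 lay in paired and 12 in unpaired positions. Loops also differed widely among themselves. The 7-base loop at 1417 to 1423 averaged 3.13%, whereas the 13-base loop at 1369 to 1381 averaged 0.0538% and the 10-base loop at 1615 to 1624 averaged 0.01% in SCR. In the last of these no position passed 0.2% in any line.

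In the 7-base loop every nucleotide reacted in every line. C1423 at its 3′ end was the highest, with a signal of 7.3% ± 0.062, 9.3% ± 0.096 and 8.3% ± 0.068. C1418 had 5.6%, 5.7% and 5.6%, the flattest of the 10 highest positions. C1419 had 2.5%, 2.7% and 1.9%, and G1420 had 2.0%, 2.7% and 1.6%. A1421 had 1.9%, 2.4% and 2.1%, G1422 had 1.6%, 1.5% and 1.3%, and C1417 had 1.0%, 1.1% and 0.9%. The order of the 2 highest was kept in all lines, and the flanking G1424 stayed at or under 0.2%.

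The 5-base loop at 1461 to 1465 reacted at its uridines. U1462 had 3.4%, 4.4% and 4.2% and U1463 had 4.2%, 5.6% and 5.4%. C1464 and A1465 were at 0% in SCR and FBL2 and at 0.2% in FBL1. In the loop at 1343 to 1350 a single guanosine, G1348, carried the signal, with 9.2%, 12.9% and 12.1%. The other 7 positions were at 0.1% each in SCR and at most 0.3% in the knockdowns, among them U1347, a listed pseudouridine next to G1348.

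The second comparison asked which head positions differed from SCR in both knockdowns. In percent of reads, with no scaling between libraries, a rise was a difference of at least 0.3% in both knockdowns that exceeded 1.96 times the summed counting errors. By this rule 24 of 435 head positions rose, 5.52%, against 4.96% of all 685 positions of the stretch. With no scaling, a high position can pass by rising only as much as other high positions of its line. The median ratios of those were 1.30 in FBL1 and 1.17 in FBL2. A single position, A1217, fell, 0.23% of the head against 0.146% of the stretch. The stretch includes the head, and of its 250 positions outside the head 10 rose, 4%, and 0 fell. The head shares are close to those of the stretch, and both knockdowns share the SCR library. DMSO values at the positions that passed either rule differed from SCR by at most 0.1% in either knockdown.

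With each library pair scaled to its own range, fewer rises and more falls passed. One normalized unit is the mean of values between the 90th and 98th percentiles of the whole stretch, or 0.958%, 1.21% and 1.04% of reads. At a threshold of 0.3 units 11 head positions rose, 2.53%, against 2.63% of the stretch, and 5 fell, 1.15% against 1.17%. Outside the head the shares were 2.8% for rises and 1.2% for falls. All 11 scaled rises also rose in percent of reads. These rises comprise 4 adenosines, 4 guanosines, 2 uridines and 1 cytidine, and the falls 2 adenosines, 2 cytidines and 1 guanosine. The head has 20.9% adenosines, 29.9% guanosines, 21.8% uridines and 27.4% cytidines. By the unscaled rule the rises were 5 adenosines, 5 guanosines, 9 uridines and 5 cytidines, so the make-up differed between the rules. U1432 passed the rise rule by the least, with 0.316 units in the knockdown that changed less, and U1296 and U1586 were the nearest to miss, both at 0.271.

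**Figure D3:**
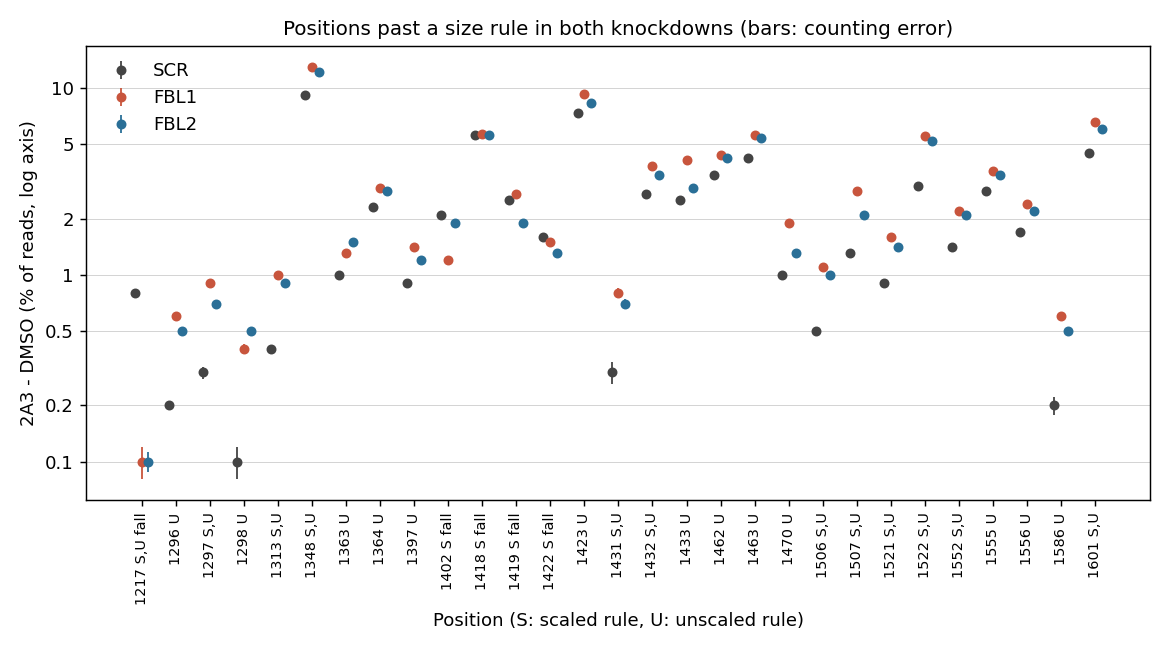
2A3 minus DMSO signal in percent of reads (y, log axis; bars are counting errors) in SCR, FBL1 and FBL2 at the 29 head positions (x) that passed the scaled rule (S) or the unscaled rule (U) in both knockdowns. Positions past the unscaled rule as rises have both knockdowns above SCR, such as A1522 at 3.0%, 5.5% and 5.2%, while C1418 lies at 5.6%, 5.7% and 5.6% and passed as a fall by the scaled rule only.

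A1522 had the largest scaled rise. Reads with an event after 2A3 made up 3.1% ± 0.038, 5.6% ± 0.073 and 5.3% ± 0.053, over DMSO values of 0.1%. The knockdown to SCR ratios of the signal were 1.83 and 1.73, changes of 1.40 and 1.86 units. The neighbouring C1521 went from 0.9% to 1.6% and 1.4%. On the other sides of this pair, G1520 had 0.1%, 0.2% and 0.1% and C1523 had 0%, 0.1% and 0.1%, and neither passed a rule.

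G1507 and A1506, in a stretch predicted unpaired, rose together. G1507 had a signal of 1.3%, 2.8% and 2.1%, ratios of 2.15 and 1.62. A1506 had 0.5%, 1.1% and 1.0%, the highest ratios among the 39 positions of at least 0.5% in SCR, at 2.20 and 2.00. Going 5′, U1505 had 0.2%, 0.5% and 0.4% and missed both rules, while A1508 on the 3′ side had 0%, 0.1% and 0.1%.

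G1348 had the largest rise in percent of reads, with differences of 3.7% in FBL1 and 2.9% in FBL2. In scaled units these were 1.04 and 2.01. As a share of the summed signal of the 39 positions of at least 0.5% in SCR, G1348 held 11.4%, 12.2% and 12.7%. Such a share divides each line by its own sum, so it is itself a scaling, on positions chosen by their SCR values. By the same measure A1522 went from 3.72% to 5.20% and 5.45%, and C1418 from 6.95% to 5.39% and 5.86%. Not every rise in percent of reads gained share, since C1423 went from 9.06% to 8.80% and 8.69%. A1601 rose from 4.5% ± 0.046 to 6.6% ± 0.080 and 6.0% ± 0.056, while U1602 beside it had 0.1% in each line.

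Smaller levels rose at A1313, from 0.4% to 1.0% and 0.9%, and in a run of 3 neighbours. In that run U1296 had 0.2%, 0.6% and 0.5%, U1297 had 0.3%, 0.9% and 0.7%, and G1298 had 0.1%, 0.4% and 0.5%. Only U1297 of the run passed the scaled rule. Each of these differences could be off by up to 0.2% through rounding of the 4 values in it.

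On the 3′ side of the 7-base loop, G1431, U1432 and C1433 rose in percent of reads. U1432 had a signal of 2.7%, 3.8% and 3.4% and C1433 one of 2.5%, 4.1% and 2.9%. G1431 had 0.3%, 0.8% and 0.7% over a DMSO value of 1.5% in each line. Further on, C1470, in the run with U1462 and U1463, had 1.0%, 1.9% and 1.3%. The run from 1552 to 1556 held G1552 with 1.4%, 2.2% and 2.1%, U1555 with 2.8%, 3.6% and 3.4% and A1556 with 1.7%, 2.4% and 2.2%. The 4 rises outside such runs and the scaled set were C1363 with 1.0%, 1.3% and 1.5%, U1364 with 2.3%, 2.9% and 2.8%, U1397 with 0.9%, 1.4% and 1.2%, and U1586 with 0.2%, 0.6% and 0.5%. C1554, between G1552 and U1555, had 2.0%, 2.1% and 2.1% and passed neither rule.

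The scaled rises depended on the scaling. With box-plot scaling 7 of the 11 (G1348, U1432, G1507, C1521, A1522, G1552 and A1601) turned to a mean change below 0, and with the 90th percentile G1348, U1432 and A1601 did so. Scaled on the head alone, 2 rises remained of the 11.

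The scaled falls were of different kinds. A1402 was below SCR in percent of reads too, with 2A3 values of 2.2% ± 0.034, 1.3% ± 0.035 and 2.0% ± 0.033. Its signal was 2.1%, 1.2% and 1.9%, and the FBL2 difference is no larger than the 0.2% that rounding can give. The neighbour C1403 had a signal of 2.4%, 3.0% and 2.3%. G1422 was below SCR by 0.1% and 0.3% of reads, and the 0.1% in FBL1 is also within rounding. C1419 was below SCR by 0.6% of reads in FBL2 and above it by 0.2% in FBL1, and C1418 equalled SCR in FBL2 and was 0.1% above it in FBL1. C1418 was thus below SCR in both lines only after scaling, and so was C1419. The remaining fall, A1217, is described with the second amplicon.

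Taken singly against SCR, the knockdowns differed in how many positions passed. In percent of reads FBL1 had 52 rises, 12% of the head against 12.3% of the stretch, and 3 falls, against 0.584% of the stretch. FBL2 had 25 rises, 5.75% against 5.26%, and 4 falls, against 0.73%. After scaling the counts were closer, with 16 rises and 7 falls in FBL1, against 4.53% and 2.04% of the stretch, and 18 and 6 in FBL2, against 3.8% and 1.46%.

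FBL1 and FBL2 can be set against each other directly, without SCR. In percent of reads FBL1 was higher by the same size rule at 21 head positions, 4.83% against 5.55% of the stretch, and lower at 2, C1247 and A1402, 0.46% against 0.438%. Of the 21, 9 lay among the 30 positions from 1417 to 1446, the largest being C1433 with 1.2%. This span was chosen after the values were seen and is rich in signal. The window from 1401 to 1450 held 16 of the 39 positions of at least 0.5% in SCR. Of these 9, only C1419, G1420, C1433 and C1436 also passed after scaling, and C1418 in the span was then lower in FBL1. After scaling 6 positions were higher, against 0.876% of the stretch, and 9 lower, against 1.61%, with G1420 highest at 0.692 units and G1348 lowest at -0.97.

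The overlap of the amplicons, from U1201 to C1273, allowed the same RNA to be read with primer set 2 at greater depth. Over the 72 positions without U1248, mean signal was 0.0736%, 0.106% and 0.0931% with primer set 1. With primer set 2 it was 0.0722%, 0.0944% and 0.0833%, the same order. Values from the amplicons lay within 0.1% of each other at 69 positions in SCR, 64 in FBL1 and 63 in FBL2. Pearson r was 0.817, 0.526 and 0.737, and 0.433, 0.391 and 0.363 without C1247, so it rested in large part on that position.

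**Figure D4:**
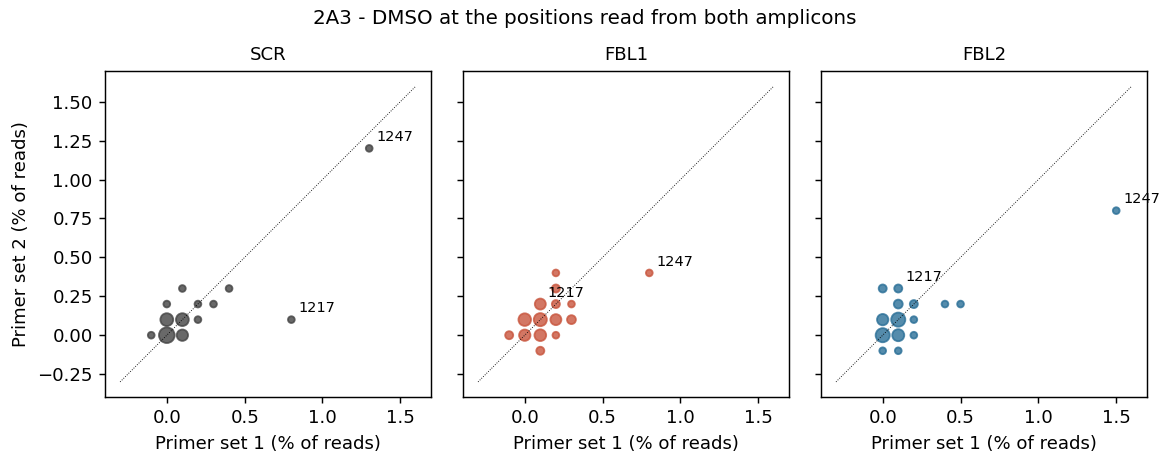
2A3 minus DMSO signal in percent of reads with primer set 1 (x) and primer set 2 (y) at the 72 shared head positions without U1248, in SCR, FBL1 and FBL2; larger points stand for more positions with the same pair of values, and the dotted line marks equality. A1217 lies off the line in SCR, at 0.8% against 0.1%, and C1247 in FBL2, at 1.5% against 0.8%.

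A1217 fell with primer set 1 only. The 2A3 values there were 0.9% ± 0.022, 0.3% ± 0.017 and 0.2% ± 0.011, over DMSO values of 0.1%, 0.2% and 0.1%. With primer set 2 they were 0.3% ± 0.0077, 0.6% ± 0.011 and 0.5% ± 0.012, with DMSO at 0.2%, 0.4% and 0.2%. The amplicons thus disagreed most in the SCR library, and no fall was seen at the greater depth.

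C1247, next to U1248, was the highest position of the overlap in SCR with both amplicons, at 1.3% and 1.2%. With primer set 2 it passed both rules as a fall, with 1.2%, 0.4% and 0.8%. It was the only one of the 72 shared positions to pass there as a fall, where 1.97% of the 659 positions of that stretch fell by the scaled and 1.37% by the unscaled rule. None of the 72 rose there, against 2.12% of that stretch by the scaled and 6.68% by the unscaled rule. With primer set 1 FBL1 was lower too, at 0.8%, but FBL2 was at 1.5%, above SCR. FBL1 thus lay below SCR in both amplicons and FBL2 in 1.

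U1248 carries a hypermodified pseudouridine close to the tRNA of the P site. It gave events in about as many DMSO as 2A3 reads. With primer set 1 the 2A3 values were 52.0% ± 0.16, 49.2% ± 0.22 and 48.9% ± 0.16 and the DMSO values 54.2% ± 0.17, 52.8% ± 0.14 and 52.4% ± 0.15. Signal was thus negative, at -2.2%, -3.6% and -3.5%. With primer set 2 the 2A3 values were 50.8%, 50.8% and 51.2% and the DMSO values 50.9%, 50.6% and 50.4%, which gives -0.1%, 0.2% and 0.8%. Between amplicons the SCR values with DMSO differed by more than the lines did within either amplicon.

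The last comparison covered the listed modified nucleotides of the head, 18 in all, each with the listed base in the files. At 9 listed 2′-O-methylation sites the signal was between 0% and 0.1% in SCR, with a median of 0%, as over the whole head. In FBL2 the signal equalled SCR at all 9. In FBL1 it was above SCR at Gm1328, Am1383, Gm1447 and Gm1490, by 0.2%, 0.1%, 0.1% and 0.1%, and equal at Cm1272, Um1288, Um1326, Cm1391 and Um1442. Gm1328 had the largest 2A3 change, from 0.1% to 0.4% and 0.2%. None of the 9 passed either rule, where 16 of the 435 head positions passed the scaled and 25 the unscaled rule in either direction, so that with 9 sites a count of 0 does not set them apart. With all values within a few rounding steps, a change under about 0.2% of reads was not detectable.

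The 7 listed pseudouridines other than U1248 were as low, at 0% or 0.1% in each line. U1244 had DMSO values of 0.3% in each line and U1625 likewise. C1337, the acetylated cytidine of the head, had a signal of 0.2%, 0.3% and 0.1%. It passed neither rule.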

How the data were processed

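18S rRNA amplicons were prepared for nanopore sequencing, per the design text. Per the submitters' processing notes, Bowtie2 and SAMtools were used. The event counted and the build were not given in the sources used here. Reactivity was deposited as a fraction of reads in steps of 0.1%. Coverage was deposited per position as a read depth. The deposited error equals the root of reactivity divided by coverage, which makes it 0 wherever reactivity is 0. The authors' deposited 2A3 minus DMSO difference, with its error in percent, equalled the one computed here at all 5751 values compared.

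Depth over the head ran from 98568 to 280361 reads with primer set 1, and from 356621 to 642846 with primer set 2. At a reactivity of 1% and median depth the counting error was 0.0189% to 0.0310% and 0.0125% to 0.0167%. Errors cover counting only, since PCR copies without molecular identifiers do not count independent molecules.

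Positions needed a depth of 100 reads. The error of a line joins its 2A3 and DMSO errors in quadrature, and the errors of a knockdown and SCR were added. U1248 was left out of the scaling. The named positions are the 10 highest in SCR, the 8 largest scaled rises and falls, the 5 largest unscaled rises, every unscaled fall, runs of at least 3 passing positions, passing positions of the overlap and the listed sites. Other positions, neighbours included, were chosen after their values were seen. Members and lists were chosen with earlier results of these data known. On simulated data with counting noise at real depths the scaled rule recovered 40 of 40 head positions changed by 0.5 units and called 0 of 395 unchanged ones. Each knockdown was simulated as the SCR signal times a fixed gain, with planted changes above the threshold of 0.3 units. The simulation therefore could not show errors from the choice of scaling, or how changes near the threshold fare. Variation between cultures was not simulated. Alternatives changed the scaling, thresholds, DMSO subtraction, rounding error, smoothing and the knockdowns used. Python 3.11.15, numpy 2.4.6, pandas 2.3.3, scipy 1.17.1, matplotlib 3.10.9 and ViennaRNA 2.7.2 were used.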

Additional observations from a re-analysis of the deposited data

Results flagged for a closer look

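Opposite signs of the change from SCR between amplicons, shared by FBL1 and FBL2, were seen at 2 positions of the overlap. For neither position was the difference tested; the difference was not tested because each amplicon has 1 library per line and reagent. For A1217, primer set 1 gave a mean unscaled change of -0.7% of reads and primer set 2 one of 0.15%. For U1248, whose background is near that of its 2A3 values, primer set 1 gave -1.35% and primer set 2 gave 0.6%.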

How the results depend on the processing

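No paired analysis was possible because there was 1 library a group, with no replicates to block. Against 11 scaled rises and 5 falls, the 90th percentile gave 25 and 30, box-plot scaling 36 and 65, the head alone 2 and 8, and 1 factor per base 4 and 14. A threshold of 0.2 gave 20 rises, and 0.5 gave 4 rises and 1 fall. There were 2 rises without DMSO subtraction and 3 with the sliding mean. With 1 knockdown at a time there were 16 to 18 scaled rises and 6 to 7 falls. Against 24 unscaled rises and 1 fall, a threshold of 0.2 gave 44 and 2, and 0.5 gave 15 rises. The sliding mean left 0 falls, and 1 knockdown at a time gave 25 to 52 rises and 3 to 4 falls. Median-ratio scaling gave 10 rises and 5 falls, 10 and 5 of them those of the main setting. Of the 11 main rises the 90th percentile kept 6, box-plot scaling 1, the head alone 2 and 1 factor per base 1. Without DMSO subtraction 2 were kept, and with the sliding mean 2. The 5 main falls were all kept with the 90th percentile, box-plot scaling, the head alone and no DMSO subtraction. With 1 factor per base and with the sliding mean 3 falls were kept. Only 1 of the 16 scaled calls, G1422, stayed the same in every setting other than the threshold of 0.5. G1422 passed by the scaled rule only, with 1.6%, 1.5% and 1.3% of reads in SCR, FBL1 and FBL2. Each other scaling also gave at least as many falls as the main setting. The mean ratio fell from 1.55 to 1.34 in FBL1 and from 1.29 to 1.18 in FBL2 without DMSO subtraction, and was 1.30 and 1.17 as a median.

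Direction turned in 16 of 192 scaled values of positions that passed. The 192 include settings that could not turn a direction. Other thresholds and added rounding error leave the change as it was. With 1 knockdown at a time the sign is fixed too, since a passing position has both knockdowns on the same side of SCR. With the 90th percentile these were G1348 at -2.64, U1432 at -0.95 and A1601 at -0.9. With box-plot scaling they were G1348 at -14.6, U1432 at -4.55, G1507 at -0.032, C1521 at -0.573, A1522 at -0.683, G1552 at -1.42 and A1601 at -6.60. With 1 factor per base they were G1348 at -5.53, U1432 at -0.837, G1552 at -0.416 and A1601 at -0.309. U1432 was at -0.054 on the head alone and G1431 at -0.034 without DMSO subtraction. None of the 42 unscaled values of A1217, G1348, C1423, U1463, A1522 and A1601 turned. Of their settings, only no DMSO subtraction and the sliding mean could have turned a value, and no scaling was applied to them. Units differ between scalings, so sizes are not comparable. The cause of each turn was not tested.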

Other observations

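Apart from U1248, few head positions had a raised DMSO value. C1582 had the highest, with 2.2%, 2.5% and 2.3% (SCR, FBL1 and FBL2), above its 2A3 values of 1.8%, 2.2% and 1.9% in every line. G1411 had DMSO values of 1.6%, 1.7% and 1.7%, and Am1383, a listed 2′-O-methylation site, had 0.7% in each line. G1338, next to the acetylated C1337, had the largest difference in DMSO between lines, with 1.0%, 0.7% and 0.6%, and its 2A3 values of 1.0%, 0.8% and 0.6% moved alike. These positions were chosen after their values were seen.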
